A study of Caenorhabditis elegans with 2 samples.

Results

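The regions described here are the 1008 ATTF-5 ChIP-seq regions whose summit lay in either of the 2 piRNA gene clusters of *Caenorhabditis elegans* chromosome IV, out of 30000 regions in the list made from both replicates together. The first cluster was taken as 4.5 to 7.0 Mb and held 591 of them, and the second was taken as 13.5 to 17.2 Mb and held 417, in ce11 coordinates. The other 3459 regions of the chromosome served as the comparison. The choice of members used position alone, so a region's signal, its place in the thresholded list and its replicate support were not used to choose it. The bounds were those of piRNA gene clusters, so the high density of piRNA genes around members is set by the choice. The list made from both replicates was deposited as peaks together with background, and 870 of the 1008 members did not reach the authors' thresholded list. Those 870 had a median deposited −log10 q-value of 0.298, and 158 of them had no summit within 100 bp in either replicate list. Below, "region" means any entry of the list made from both replicates, and "peak" means a region that is also in the thresholded list.

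All samples came from 1 group, 2 biological replicates numbered 1 and 3, and no untagged or wild-type samples were analysed here. The worms were young adults of both sexes, 66 hours old, taken whole, of strain OP724. They carried the unc-119(tm4063) allele together with wgIs724, a transgene in which attf-5 is joined to TY1, EGFP and 3xFLAG tags and which also holds unc-119(+). Sheared chromatin was pulled down through the EGFP tag, so what is bound is the tagged protein made from a transgene in 1 line. The signal does not separate germline from soma, and whether the transgene was expressed in the germline was not examined here. With 1 group and 2 replicates no test between groups exists. Values are therefore given with both replicates, or with 95% intervals that cover counting error only.

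ATTF-5 belongs to the worm proteins named for the AT-hook, a short peptide that binds the minor groove of AT-rich DNA. The piRNAs of *C. elegans*, also called 21U-RNAs, are 21 bases long, begin with uridine and guide the Argonaute PRG-1 in the germline. Most are made from a great many very small, separately transcribed genes, each with its own upstream motif around the sequence CTGTTTCA, and the factors PRDE-1, SNPC-4, TOFU-4 and TOFU-5 act at that motif. These genes lie between and inside protein-coding genes in 2 broad domains of chromosome IV. In the annotation used here 14204 of 15363 piRNA genes, 92.5%, fell within the bounds above, with 2816 in the first cluster and 11388 in the second. The upstream 60 bp held the core GTTTC, read in the direction of the gene, at 75.8% of the piRNA genes in the clusters, and the octamer CTGTTTCA at 34.8%, with a median of 46 bp from the start of the octamer to the annotated 5′ end.

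The sequences that follow are the 50 bp on either side of the summit for the strongest peaks of each cluster, on the plus strand of ce11, and they show the sites with the highest signal. Capitals mark the core GTTTC or its reverse complement GAAAC.
rpl-20 and Y17G9B.5 promoter, chrIV:4750013-4750113: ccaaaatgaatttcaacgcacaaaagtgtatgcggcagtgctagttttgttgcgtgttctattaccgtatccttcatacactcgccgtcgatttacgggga
intergenic peak near K08F11.1, chrIV:4727976-4728076: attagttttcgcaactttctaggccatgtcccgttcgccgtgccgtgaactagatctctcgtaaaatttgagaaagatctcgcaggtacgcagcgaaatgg
ntl-11 promoter, chrIV:15471566-15471666: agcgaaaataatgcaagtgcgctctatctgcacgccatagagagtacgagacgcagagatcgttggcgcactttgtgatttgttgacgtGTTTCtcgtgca
WBGene00185102 and WBGene00194913 promoter, chrIV:15646749-15646849: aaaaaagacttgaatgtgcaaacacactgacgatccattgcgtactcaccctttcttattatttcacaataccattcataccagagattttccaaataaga
The next set shows the same window for the strongest peaks of each cluster within 200 bp of a piRNA gene and outside protein-coding promoter windows. The strongest peak within 200 bp of a piRNA gene, at hda-6 with a pooled signal of 277.2, lay in a promoter window and is not shown. The peaks near 21ur-5229 and 21ur-3160 also lay within 200 bp of a tRNA gene.
peak near 21ur-8870, chrIV:6839245-6839345: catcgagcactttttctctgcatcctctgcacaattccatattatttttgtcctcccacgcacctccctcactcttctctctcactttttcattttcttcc
peak near 21ur-5229, chrIV:5967202-5967302: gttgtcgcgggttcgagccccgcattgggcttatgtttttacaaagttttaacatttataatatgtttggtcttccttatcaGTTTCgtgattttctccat
peak near 21ur-3160, chrIV:14225084-14225184: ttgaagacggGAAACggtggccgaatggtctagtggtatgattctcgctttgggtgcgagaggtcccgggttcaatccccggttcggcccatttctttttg
peak near 21ur-8767, chrIV:15696937-15697037: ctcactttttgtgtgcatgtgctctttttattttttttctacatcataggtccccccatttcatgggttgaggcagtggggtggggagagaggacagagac
For comparison, the piRNA genes nearest to those 4 summits are shown with their upstream 60 bp followed by the 21 bases of the piRNA, in the direction of the gene, with the core of the upstream motif in capitals.
21ur-8870, chrIV:6839416-6839496, plus strand: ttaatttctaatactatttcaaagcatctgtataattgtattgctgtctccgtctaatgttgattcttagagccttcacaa
21ur-5229, chrIV:5967029-5967109, plus strand: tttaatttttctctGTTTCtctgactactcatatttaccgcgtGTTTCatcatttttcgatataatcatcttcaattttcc
21ur-3160, chrIV:14224908-14224988, plus strand: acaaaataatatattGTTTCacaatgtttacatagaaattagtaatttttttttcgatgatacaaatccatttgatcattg
21ur-8767, chrIV:15697184-15697264, minus strand: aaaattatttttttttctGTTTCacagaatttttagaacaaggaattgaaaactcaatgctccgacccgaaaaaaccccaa
The 2 strongest promoter windows of the second cluster differed in the core: it occurred beside the ntl-11 summit and not beside the WBGene00194913 summit. None of the 8 summit windows overlapped an annotated piRNA gene. Of the 4 piRNA genes, the upstream core was present at 3 and the whole octamer only at 21ur-8767, where it began 44 bp before the 5′ end.

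ATTF-5 regions were sparser in the clusters than along the rest of chromosome IV. The density was 162.6 regions per Mb in the clusters (152.7 to 172.9) and 306.3 per Mb in the rest of the chromosome (296.2 to 316.7), a ratio of 0.531. The clusters make up 35.4% of the chromosome and held 22.6% of its regions. The second cluster, with 3077.8 piRNA genes per Mb, had 112.7 regions per Mb. The first cluster, with 1126.4 piRNA genes per Mb, had 236.4 regions per Mb, against 45.2 piRNA genes per Mb in the rest. In the list of replicate 1 the density was 160.2 per Mb in the clusters and 309.5 per Mb in the rest, and in that of replicate 3 it was 170.3 per Mb in the clusters and 287.1 per Mb in the rest. The ratio was thus 0.518 in replicate 1 and 0.593 in replicate 3 (mean 0.555 ± 0.0535, SD, n = 2), and the densities of clusters and rest did not overlap between the lists.

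Peaks were sparser in the clusters as well, by a smaller factor. There were 138 peaks in the clusters, 22.3 per Mb (18.7 to 26.3), and 392 in the rest, 34.7 per Mb (31.4 to 38.3), a ratio of 0.641. The first cluster had 72 peaks, 28.8 per Mb (22.5 to 36.3), an interval that overlapped that of the rest, and the second had 66, 17.8 per Mb (13.8 to 22.7). When each replicate's strongest regions were counted, as many as the thresholded list holds, the ratio was 0.645 in replicate 1 and 0.701 in replicate 3. Protein-coding genes, whose promoters held most peaks, were also sparser in the clusters, at 151.8 per Mb against 207.2 per Mb in the rest. Per 100 protein-coding genes the clusters held 14.7 peaks and the rest 16.8.

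**Figure D1:**
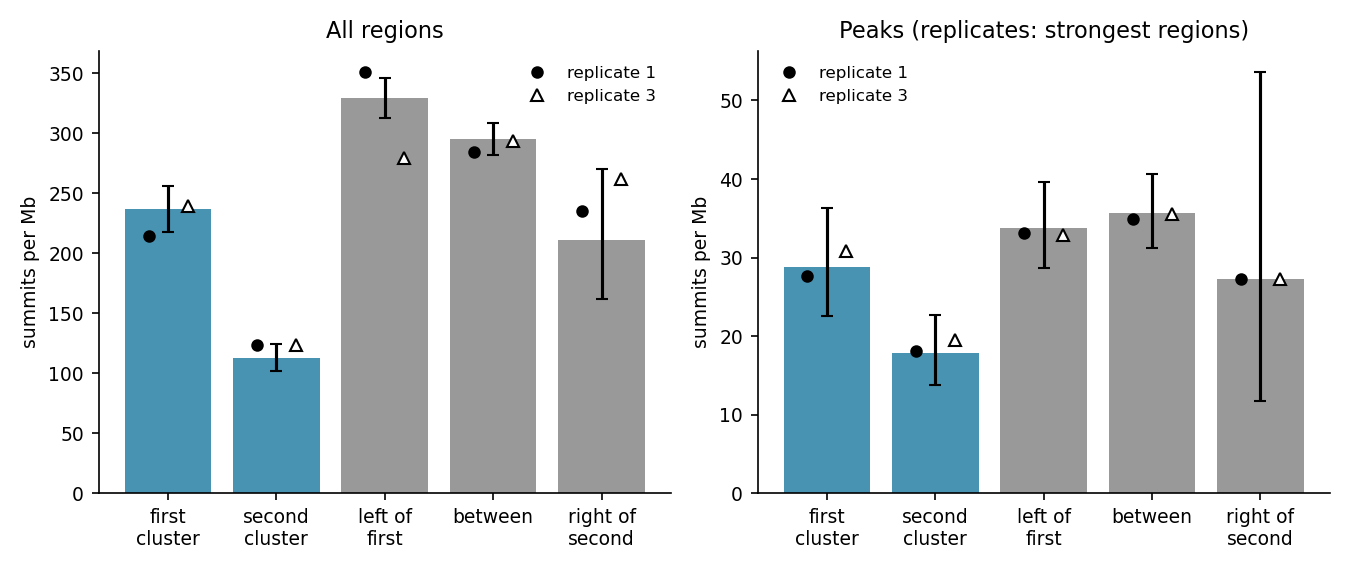
Summits per Mb (y axis) in the 2 clusters (blue) and the 3 other stretches of chromosome IV (grey) for all regions (left) and peaks (right), with exact Poisson 95% intervals and the 2 replicate lists as points. The second cluster is lowest in both panels, at 112.7 regions and 17.8 peaks per Mb, and the short right end of the chromosome has the widest intervals.

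In the first cluster the step in density lay inside the lower bound, where piRNA genes become dense. The first 250 kb of the first cluster held 2 piRNA genes and 118 regions, and the next 250 kb held 266 piRNA genes and 38 regions. The strongest members of the first cluster, at rpl-20 and near K08F11.1, lay within or at the edge of that piRNA-poor stretch. At the left edge of the second cluster the count changed from 63 regions and 29 piRNA genes in one 250-kb window to 23 regions and 689 piRNA genes in the next. Counts in 100-kb windows had a median of 23 regions in the first cluster (range 4 to 52) and 9 in the second (range 0 to 32), against 29 between the clusters (range 12 to 63). Over the 62 windows of the clusters, the number of regions and that of piRNA genes had a Spearman rho of -0.60, and for peaks rho was -0.31. These values pool 2 clusters that differ in both counts. Within the first cluster alone rho was -0.43 for regions and -0.39 for peaks, and within the second -0.46 and -0.29. The numbers of piRNA genes and of protein-coding genes had a rho of -0.65 over the same 62 windows. These windows share their lists and their base composition, and over all 62 the AT content of the window had a rho of -0.65 with the number of regions.

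**Figure D2:**
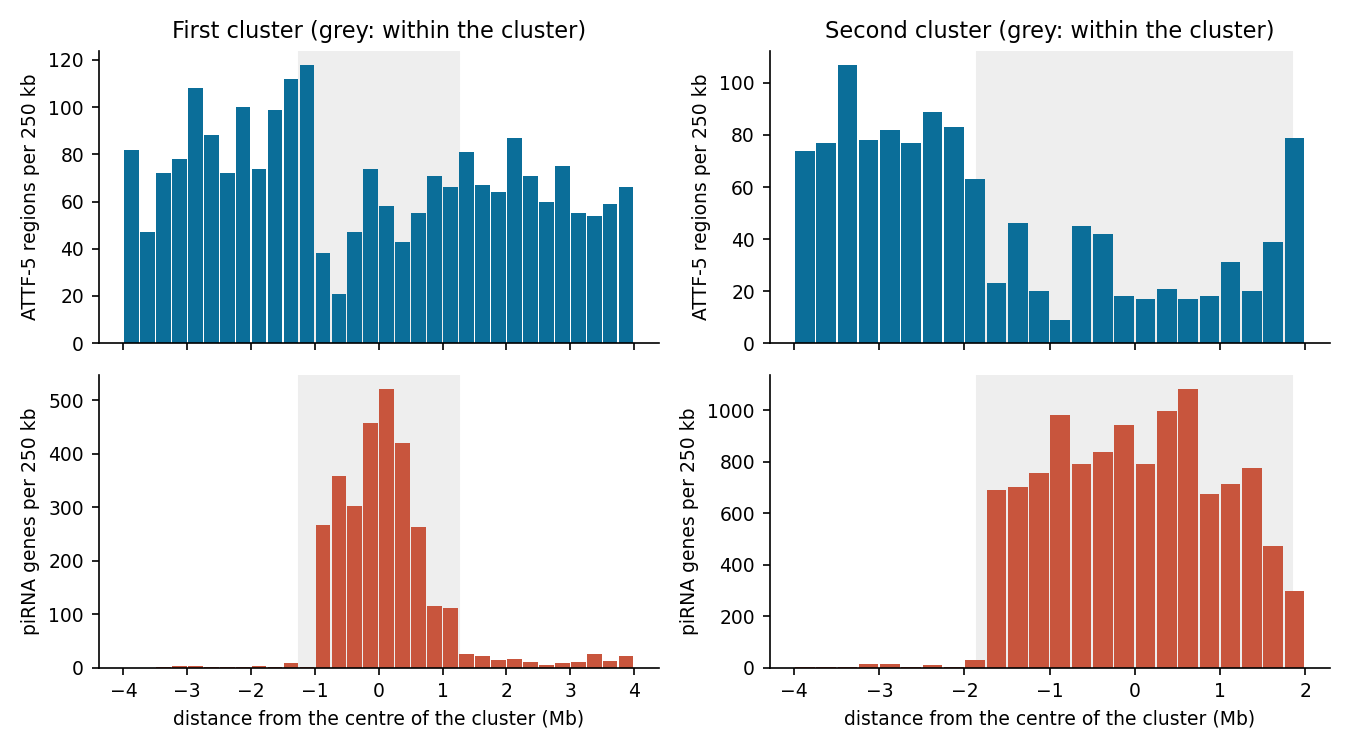
ATTF-5 regions (top) and piRNA genes (bottom) per 250 kb against the distance from the centre of each cluster in Mb, with the clusters in grey. In the first cluster the regions stay high in the leftmost window, which has 118 regions and 2 piRNA genes, and drop to 38 where the piRNA genes begin.

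The longest stretch without any region in the clusters was 160.3 kb long, at chrIV:16000424-16160686 in the second cluster. It held 734 piRNA genes and 4 protein-coding 5′ ends. The longest such stretch between the clusters was 55.5 kb, with 5 piRNA genes and 11 protein-coding 5′ ends. Between neighbouring peaks the longest distance in the second cluster was 455.2 kb, a stretch with 1544 piRNA genes and 48 protein-coding 5′ ends, against 193.2 kb between the clusters.

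Members were also rare near piRNA genes at the scale of single genes. The summit lay within 200 bp of a piRNA gene for 99 of the 1008 members, 9.82% (8.13 to 11.8), although 46.4% of the bases in the clusters lie that close. The share was 7.45% in the first cluster, where 30.1% of bases qualify, and 13.2% in the second, where 57.5% do. Over all 30000 regions of the genome the share was 0.683%. The median distance from a summit to the nearest piRNA gene was 3105 bp for members and 2493.5 bp for member peaks, while positions placed every 50 bp along the clusters had a median of 239 bp. In the rest of the chromosome 0.954% of regions lay within 200 bp of a piRNA gene, where 1.57% of bases do. Among the 138 member peaks, 9 lay within 200 bp, 6.52%, and only 1, near 21ur-6372, lay within 100 bp, where 31.9% of bases lie.

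**Figure D3:**
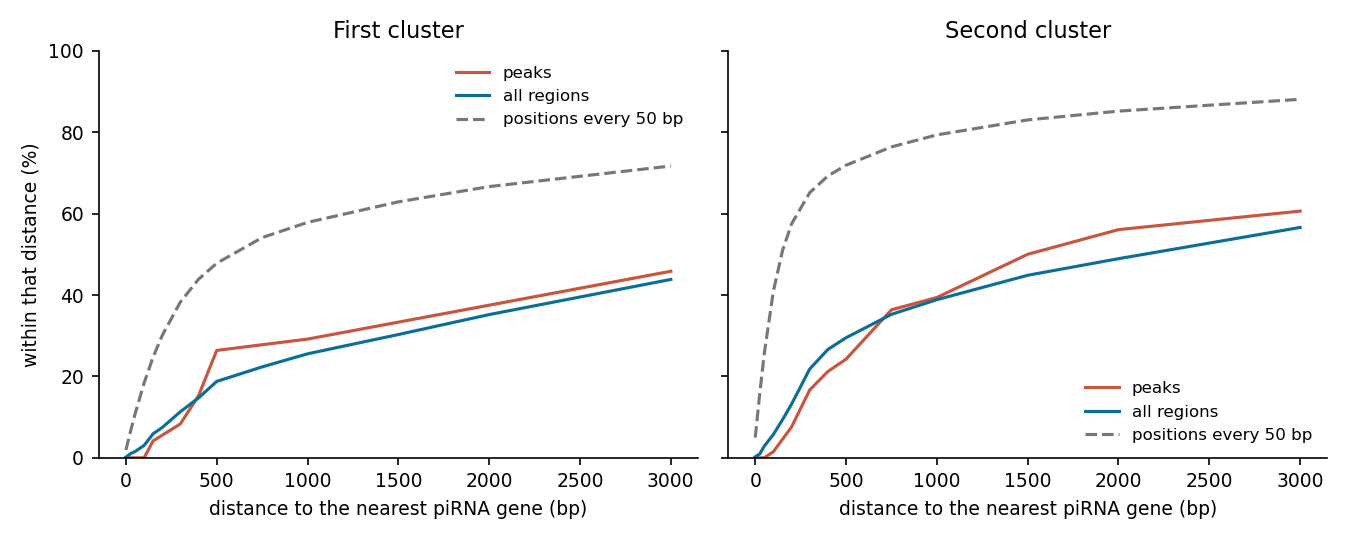
Percent of member peaks (red), of all members (blue) and of positions every 50 bp (grey, dashed) within a given distance in bp of the nearest piRNA gene, in each cluster. Both kinds of summit stay below the positions over the whole range, with 7.45% of members and 30.1% of bases within 200 bp in the first cluster and 13.2% and 57.5% in the second.

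Away from piRNA genes, over all such sequence, regions were as dense in the clusters as in the rest of the chromosome, or denser. Within 200 bp of a piRNA gene the clusters held 34.4 regions per Mb (28.0 to 41.9), between 200 and 1000 bp they held 142.4 (124.0 to 162.8), and beyond 1000 bp they held 382.2 (354.3 to 411.7). In the rest of the chromosome sequence beyond 1000 bp of a piRNA gene held 313.1 regions per Mb (302.5 to 323.9). The 3 densities in the clusters were 39.6, 155.1 and 355.2 per Mb in the list of replicate 1, and 53.5, 180.4 and 347.0 in that of replicate 3, so the order was the same in both. Over all sequence, peaks followed the same order, with 3.13 per Mb within 200 bp (1.43 to 5.94), 25.3 between 200 and 1000 bp and 50.04 beyond 1000 bp (40.3 to 61.4), against 35.2 beyond 1000 bp in the rest (31.7 to 38.9). The density within 200 bp over that beyond 1000 bp was 0.0900 for regions and 0.0625 for peaks. In the list of replicate 3 alone it was higher, at 0.154 for regions and 0.103 for its 3331 strongest regions by signal. In the pooled list the ratio was lower in the second cluster, at 0.0776 for regions and 0.0449 for peaks, than in the first, at 0.140 and 0.110.

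The few piRNA genes outside the clusters did not show a gap of that size. Within 200 bp of these genes the rest of chromosome IV held 185.6 regions per Mb (127.8 to 260.7), against 34.4 in the clusters. That sequence was 68.1% AT, against 70.5% AT in the clusters. In promoter windows the rest held 426.0 regions per Mb within 200 bp of a piRNA gene (252.5 to 673.2) and 443.0 beyond 1000 bp. Outside promoter windows it held 110.7 (62.0 to 182.6) and 276.9, against 32.6 and 341.5 in the clusters. Peaks outside promoter windows numbered 0 within 200 bp in the rest (0 to 27.2 per Mb). Of the 510 piRNA genes of chromosome IV outside the clusters, 175 lay right of the second cluster, in a short stretch with 595.6 piRNA genes per Mb. Counted by gene, 140 of 14204 piRNA genes in the clusters had a region within 200 bp, 0.986% (0.836 to 1.16). In the lists of single replicates the share lay above that interval, at 1.302% in replicate 1 and 1.58% in replicate 3. The share was 6.08% of 510 piRNA genes elsewhere on chromosome IV (4.32 to 8.50) and 10.3% of 649 on the other chromosomes (8.21 to 12.9). A peak lay within 200 bp of 15 piRNA genes in the clusters, 0.106%, of 4 in the rest of chromosome IV, 0.784%, and of 13 on the other chromosomes, 2%. Many piRNA genes in the clusters lie close to each other, so 1 summit can count for several.

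**Figure D4:**
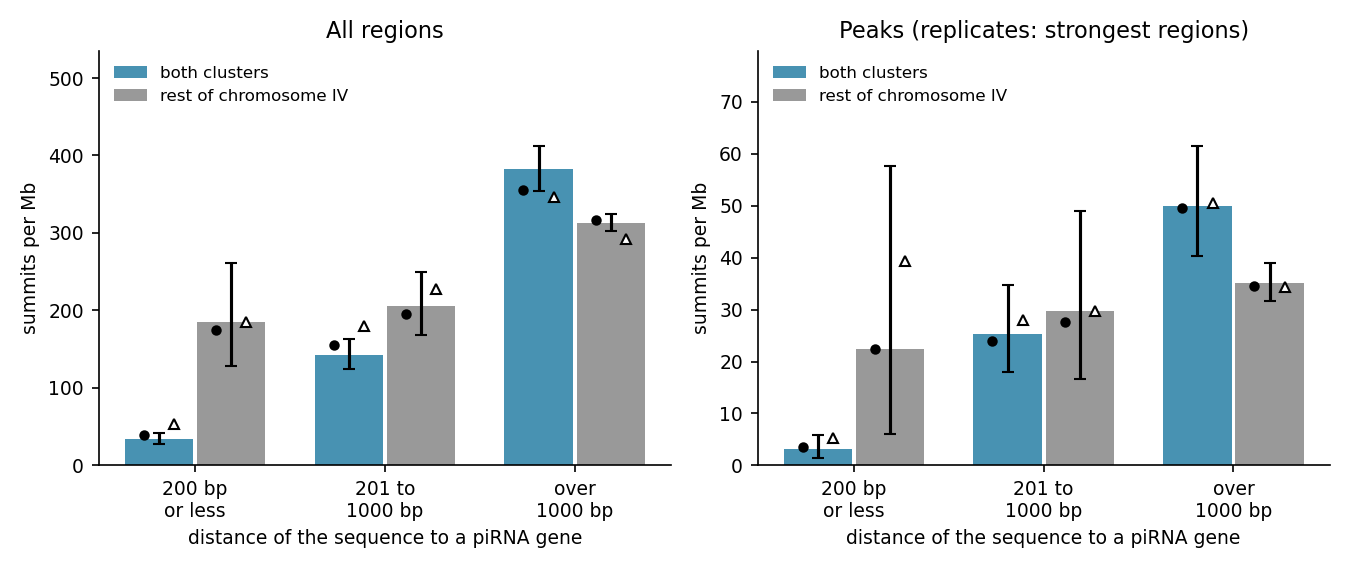
Summits per Mb in sequence at 3 distances from a piRNA gene, in the clusters (blue) and the rest of chromosome IV (grey), for all regions (left) and peaks (right), with exact Poisson 95% intervals, replicate 1 as circles and replicate 3 as triangles. In the clusters the density is 34.4, 142.4 and 382.2 regions per Mb with growing distance, and beyond 1000 bp the clusters stand above the rest at 313.1.

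Base composition moved with this pattern. Sequence within 200 bp of a piRNA gene in the clusters was 70.5% AT, sequence beyond 1000 bp was 63.3% AT, and the density of regions was lower where AT content was higher, both in the clusters and in the rest of the chromosome. When chromosome IV was divided into quintiles by the AT content of the surrounding 401 bp, regions in the clusters were sparser within 200 bp of a piRNA gene than beyond 1000 bp in each quintile. In the quintile with the lowest AT content the densities were 315.1 and 612.9 regions per Mb, and in the middle quintile 61.6 and 347.3. The most AT-rich quintile rested on 3 and 8 regions. Each quintile was then weighted by its share of the cluster bases, in both densities. The ratio of the density within 200 bp to that beyond 1000 bp became 0.333 for regions and 0.189 for peaks. Without weights it was 0.0900 and 0.0625. With the quintiles weighted equally instead, the ratio of the clusters to the rest of the chromosome was 0.734 for regions and 0.894 for peaks, against 0.531 and 0.641. Beyond 1000 bp of a piRNA gene the ratio of the clusters to the rest was 1.13 for regions and 1.41 for peaks with equal weights. The direction differed by quintile. In the quintile with the lowest AT content the clusters were lower, at 612.9 against 712.3 regions and 67.5 against 73.3 peaks per Mb. They were also lower in regions in the most AT-rich quintile, at 31.9 against 52.9 per Mb. Elsewhere the clusters were higher. How well reads map in sequence rich in piRNA genes was not tested.

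**Figure D5:**
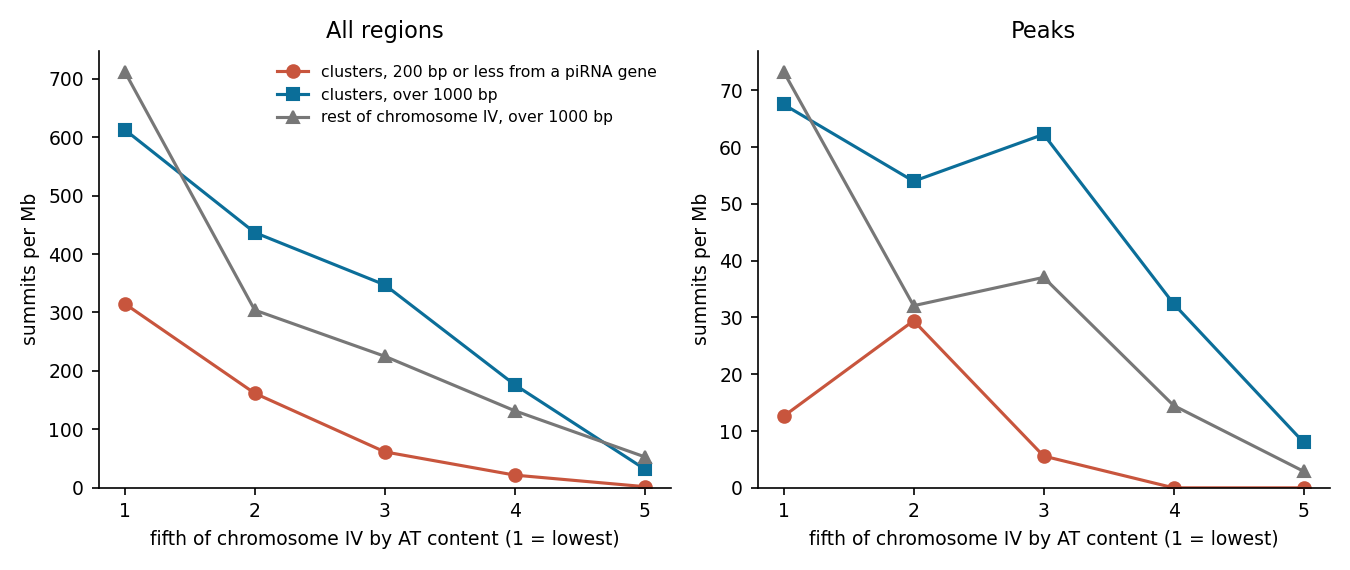
Summits per Mb in quintiles of chromosome IV ordered by AT content, for sequence within 200 bp of a piRNA gene in the clusters (red), beyond 1000 bp in the clusters (blue) and beyond 1000 bp in the rest of the chromosome (grey). All densities of regions are lowest in the most AT-rich quintile, and the red points lie below the blue ones in every quintile, at 315.1 against 612.9 regions per Mb in the first.

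Member summits were less AT-rich than their surroundings. The AT content within 50 bp of the summit was 57.7% ± 9.05 (SD over 1008 members), that of the flanks from 150 to 200 bp was 61.1%, and that of all bases in the clusters was 67.0%. In member peaks the values were 53.1% at the summit and 64.0% in the flanks. In the rest of the chromosome peaks had 53.9% at the summit and 63.6% in the flanks, so cluster and other peaks were alike within 1 percentage point in both. The motif of the piRNA genes was not more frequent at member summits than in the clusters at large. The core GTTTC, read on both strands, occurred within 50 bp of 28.1% of member summits (25.4 to 30.9) and of 37.1% of all positions in the clusters, and in the rest of the chromosome of 25.3% of summits and 26.1% of positions. The octamer CTGTTTCA, which contains the core, occurred within 50 bp of 12 member summits, 1.19%, and of 7.36% of all positions in the clusters. Positions and summits were not matched for distance: 46.4% of cluster bases and 9.82% of members lie within 200 bp of a piRNA gene. For the 99 members that near, the core occurred at 39.4% (30.3 to 49.2) and the octamer at 8.08%.

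Promoters of protein-coding genes held the larger part of the peaks. A promoter window, from 1000 bp before to 200 bp after the annotated 5′ end, contained 72 of 138 member peaks, 52.2%, and 57.9% of peaks in the rest of the chromosome. For all members the share was 25.7% (23.1 to 28.5), against 31.3% in the rest and 28.5% over all 30000 regions, while such windows covered 16.6% of bases in the clusters and 22.0% in the rest. Intergenic sequence covered 36.04% of the clusters and held 51.3% of the piRNA 5′ ends there, but 15.4% of members and 20.3% of member peaks. In the rest of the chromosome intergenic sequence covered 19.7% of bases and held 14.9% of regions. Within promoter windows the density of peaks in the clusters again differed with the distance to piRNA genes. It was 8.25 per Mb within 200 bp of a piRNA gene, on 3 peaks (1.70 to 24.1), and 40.7 between 200 and 1000 bp, on 11 peaks (20.3 to 72.8). These intervals overlapped. Beyond 1000 bp it was 147.8 (112.2 to 191.1), which exceeded the 93.0 per Mb of such promoter sequence in the rest (81.0 to 106.3). Outside promoter windows the density of peaks in the clusters was 2.39 per Mb within 200 bp of a piRNA gene (0.875 to 5.19), but 21.9 between 200 and 1000 bp and 23.1 beyond 1000 bp (15.9 to 32.5), and the intervals of the farther distances overlapped. In the first cluster alone these last densities were 25.5 between 200 and 1000 bp and 21.2 beyond. The rest of the chromosome had 19.0 peaks per Mb outside promoter windows beyond 1000 bp (16.2 to 22.3), an interval that overlapped that of the clusters.

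Counted by gene, a peak lay in the promoter window of 88 of 941 protein-coding genes in the clusters, 9.35% (7.65 to 11.4), against 12.7% of 2340 genes in the rest of chromosome IV and 12.3% of 19973 genes genome-wide. A region of any strength lay in the window of 24.8% of the cluster genes (22.1 to 27.6), against 40.3% in the rest and 38.6% genome-wide. For peaks the 2 clusters had nearly the same share, at 9.34% and 9.37%. The share differed with neighbouring piRNA genes. Of the 561 cluster genes with a piRNA gene within 1000 bp of their 5′ end, 15 had a peak, 2.67% (1.63 to 4.36), and of the 380 without one, 73 had a peak, 19.2% (15.6 to 23.5). Neighbouring genes can share a peak: the 15 rested on 14 distinct peaks and the 73 on 53. The intervals treat genes as separate and do not allow for this. Elsewhere on chromosome IV the shares were 9.55% of 157 genes with such a neighbour (5.88 to 15.2) and 13.0% of 2183 without (11.6 to 14.4). In the clusters promoters with a piRNA neighbour were 67.9% AT and those without were 63.7% AT. Quintiles of promoter AT were then weighted, in both groups, by their numbers of cluster genes. So weighted, 3.83% of genes with a piRNA neighbour and 15.2% of those without had a peak. Chemoreceptor genes, which are large families expressed mostly in sensory neurons, made up 11.9% of the cluster genes with a piRNA neighbour and 3.68% of those without. When genes with chemoreceptor symbols were left out, 3.04% of genes with a piRNA neighbour and 19.9% of those without had a peak.

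In the first cluster the strongest peak had a pooled signal of 1443.3, with replicate signals of 755.9 (replicate 1) and 689.1 (replicate 3), at chrIV:4749820-4750288 between the divergent 5′ ends of rpl-20, which encodes a protein of the large ribosomal subunit, and Y17G9B.5. The next was an intergenic peak, 3164 bp downstream of the 5′ end of K08F11.1, with a pooled signal of 636.7 and replicate signals of 329.2 and 312.7. The peak in the shared window of ipla-6 and mif-4 had a pooled signal of 596.4, and that between F29B9.11 and jmjd-1.2, which encodes a histone demethylase, had 557.8. The ruvb-2 promoter, for a RuvB-like ATPase, had 479.3. The window shared by C17H12.2 and vha-8, which encodes a subunit of the vacuolar proton pump, had 466.9. All 6 lay between 1682 and 30194 bp from the nearest piRNA gene.

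In the second cluster the strongest peak had a pooled signal of 804.6, with 433.6 in replicate 1 and 368.6 in replicate 3, at chrIV:15471433-15471821 in the promoter window of ntl-11, a gene of the CCR4-NOT deadenylase complex. The WBGene00185102 and WBGene00194913 window had 766.7, and that of Y73F8A.27, about 1 kb from the ntl-11 summit, had 576.8. The window shared by snr-1, which encodes an Sm protein of the spliceosome, and snx-13, a sorting nexin gene, had 438.5. The lin-66 promoter, a heterochronic gene, had 402.7, and the window shared by tsr-2 and set-26, a SET-domain gene, had 307.1. The lin-66 summit was the nearest of the 6 to a piRNA gene, at 753 bp, and the others lay at 1210 to 9540 bp.

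The 15 genes that had a promoter peak and a piRNA gene within 1000 bp of their 5′ end were listed after their values were seen. They rested on 14 peaks, of which the strongest were those of WBGene00185102 and lin-66 above. The summit at WBGene00185102 itself lay 1210 bp from the nearest piRNA gene. That peak also counted for WBGene00194913, a gene with no piRNA gene within 1000 bp of its 5′ end. The window shared by F41H10.4 and hda-6, a histone deacetylase gene, had a pooled signal of 277.2, with 142.9 in replicate 1 and 134.8 in replicate 3, and its summit lay 110 bp upstream of the 5′ end of 21ur-11261. The window of sta-1, a STAT family gene, had 138.1. The window of ugt-20, a UDP-glucuronosyltransferase gene, had 137.1 and a summit 125 bp from 21ur-4109. The window of elo-6, a fatty acid elongase gene, had 115.5, with 38.7 in replicate 1 and 84.2 in replicate 3, so its replicates differed by more than 2 times. The weakest of the 14, at Y105C5A.24, had a signal of 95.95.

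Of the 9 member peaks within 200 bp of a piRNA gene, 3 lay in promoter windows. Their pooled signals were 277.2 at hda-6, 137.1 at ugt-20 and 95.95 at Y105C5A.24. The other 6 lay outside promoter windows and had pooled signals from 105.0 to 235.7. The median for all member peaks, those in promoter windows included, was 146.8. The strongest of these 6 had 121.3 in replicate 1 and 107.7 in replicate 3. It lay in intergenic sequence 181 bp upstream of 21ur-8870, the one piRNA gene shown above without the core. The next, with 227.8 and replicate values of 136.6 and 88.2, lay 143 bp beyond 21ur-5229 on an annotated ncRNA gene and within 200 bp of a tRNA gene. In the second cluster the strongest, with 186.9 and replicate values of 111.3 and 83.5, lay on a tRNA gene 146 bp beyond 21ur-3160. The peak in an intron of Y105C5A.15, 197 bp from 21ur-8767, had 181.7, with 84.6 and 88.4 in the replicates. The peak in Y57G11C.5 had 124.6 with 49.98 and 77.4, and that near 21ur-6372 had 105.0 with 61.6 and 37.2. In the first cluster no further peak met the rule, and the next strongest regions, in an exon of fkh-7 beside 21ur-3187 and near 21ur-12668, had 64.9 and 58.8 and were not in the thresholded list.

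Genes for tRNAs, which RNA polymerase III transcribes, numbered 9 in the first cluster and 32 in the second, and often had a peak near them, as in the rest. They were examined after 2 of the 6 piRNA-near peaks outside promoter windows were seen to lie at one. Of 41 tRNA genes in the clusters 21 had a peak within 200 bp, 51.2%, and of 30 in the rest of chromosome IV 19 had one, 63.3%. A tRNA gene lay within 200 bp of 17 of the 66 member peaks outside promoter windows, 25.8%, against 14 of 165 such peaks in the rest, 8.48%. The count was 4 of 33 in the first cluster, 12.1%, and 13 of 33 in the second, 39.4%. tRNA genes are near-identical copies, and no source used here says how reads were divided among copies, so the place of these signals is uncertain.

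Those regions that did occur in the clusters resembled the others in strength. The median signal was 35.2 for members and 35.1 for the rest of the chromosome, in the authors' enrichment units, and for peaks it was 146.8 and 141.0. A share of 13.7% of members was in the thresholded list (11.7 to 15.95), with 12.2% in the first cluster and 15.8% in the second (12.6 to 19.6), against 11.3% in the rest of the chromosome and 11.1% over the whole list. By distance to a piRNA gene the share was 9.09% of the 99 members within 200 bp (4.86 to 16.4), 17.8% of the 214 between 200 and 1000 bp (13.2 to 23.4) and 13.1% of the 695 beyond (10.8 to 15.8), and these intervals overlapped. At the threshold, the weakest peaks had signals of 90.3 at paqr-1 and 91.1 at col-133, and the strongest regions that missed it had 88.8 in an intron of fkh-7 and 89.1 near dmd-6. A summit within 100 bp in both replicate lists was found for 34.7% of members (31.9 to 37.7), 33.9% of the rest and 33.2% of all regions. It was found for 95.7% of member peaks and 25.1% of the other members, and since the authors chose the thresholded list on reproducibility the first of these is a description. For the 99 members within 200 bp of a piRNA gene the share was 30.3%. Where both lists held a summit, signal in replicate 1 over that in replicate 3 was 0.20 at the median on the log2 scale, with an SD of 0.62 across members.

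At the bounds, the regions just inside and just outside had signals of 36.5 and 36.3 at the lower bound of the first cluster and 26.6 and 29.7 at its upper bound. At the lower bound of the second cluster they were 42.9 and 46.6, and at its upper bound 31.8 and 105.0. The region just beyond the last of these, at ZK550.2, was a peak with 8 piRNA genes within 1000 bp, so piRNA genes continue past the second cluster as taken here.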

How the data were processed

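Peak lists of ATTF-5 ChIP-seq from whole *C. elegans* young adults were analysed: 1 list per replicate (30000 regions for replicate 1, 28299 for replicate 3), 1 from both together (30000) and 1 thresholded on reproducibility (3331, all found in the list from both). Per the labels, the authors made each list against a control. The deposited signal of a region is the authors' enrichment value and was used as given, and the deposited −log10 q-value was used for description only. The sources used here name neither the peak caller nor the depth, and nothing was scaled by depth.

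Summits in ce11 were placed on RefSeq sequence and Ensembl release 115 genes of WBcel235, which has the same sequence. Densities are summits per Mb with exact Poisson 95% intervals. Shares have Wilson 95% intervals. Python 3.11.15, numpy 2.4.6, pandas 2.3.3 and scipy 1.17.1 were used, and the functions were tested on simulated data. Named regions are the 6 strongest peaks and the 4 strongest non-promoter regions within 200 bp of a piRNA gene per cluster, those beside the threshold and the bounds, and a list of piRNA pathway genes. Members and lists were chosen with earlier results of these data known. The weighting by AT content, the split by distance and the tRNA and chemoreceptor counts were added after seeing the data. The alternatives tried were single replicates, dropped close summits, other bounds, distances, windows and comparison sequence. Replicates are biological per the labels, and no sample was left out.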

Additional observations from a re-analysis of the deposited data

How the results depend on the processing

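The 4 density ratios, of the clusters over the rest and by distance to a piRNA gene, each for regions and peaks, stayed below 1 under all alternatives run for them. For the clusters over the rest of chromosome IV, the region ratio of 0.531 moved by more than the spread between replicates to 0.476 with each bound 250 kb further in and to 0.734 with AT quintiles weighted alike. The peak ratio of 0.641 moved to 0.695 for the stronger part of the thresholded list and to 0.894 with AT quintiles weighted alike, the setting that brought it nearest to 1. Within 200 bp over beyond 1000 bp of a piRNA gene, the region ratio of 0.0900 was 0.333 with AT quintiles weighted by cluster bases. It was 0.140 in the first cluster alone. The peak ratio of 0.0625 was 0.189 and 0.110 in these settings and, with promoter windows left out, 0.103. Among shares, members in the thresholded list were 14.8% with the inner bounds and 14.1% with close summits dropped. Members within 200 bp of a piRNA gene were 12.3% with the inner bounds, 4.17% within 100 bp and 23.2% within 500 bp, and piRNA genes with a member were 0.401% and 3.68% at those distances. Members in a promoter window were 16.5% with a window from 500 bp before to 100 bp after the 5′ end. Support in both replicates was 23.6% within 50 bp and 46.8% within 200 bp. The core was near 29.4% of summits with the inner bounds and 46.9% within 100 bp, and AT content was 58.4% within 100 bp. Genes with a peak and no piRNA gene were 16.1% at 500 bp and 23.2% at 2000 bp. With 1 replicate's list in place of both, that list's 3331 strongest regions by signal stood in for peaks, and the thresholded list was not used. The clusters over the rest then gave 0.518 to 0.593 for regions and 0.645 to 0.701 for the strongest regions. The ratio by piRNA distance was 0.112 to 0.154 and 0.0702 to 0.103. Of each replicate's regions in the clusters, 13.7 to 14.1% were among its strongest. The share near a piRNA gene was 11.5 to 14.6%, and piRNA genes with a member were 1.302 to 1.58%. Promoter windows held 25.5 to 26.7%, the core was near 26.6 to 27.5%, AT content was 58.1 to 58.4% and the median signal 20.2 to 24.3. Genes with one of the strongest regions were 1.96 to 3.57% with a piRNA gene and 18.2 to 20% without. The cause of these moves was not tested, except that wider windows and distances hold more sequence. No paired analysis was possible because there was 1 group. Depth is unknown, the thresholded list holds few members near piRNA genes, and 870 members lie below the authors' threshold.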

Other observations

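Genes that act in piRNA production lie on several chromosomes, and their promoters were looked up in the same lists. Of 18 genes listed 17 were matched to the annotation, and 2 had a peak in the promoter window, against 12.3% of all protein-coding genes, while 12 had a region of any strength in it, against 38.6% of all protein-coding genes. At snpc-4, which encodes a factor that binds upstream of piRNA genes and of other small RNA genes, the pooled signal was 129.8, with 68.3 in replicate 1 and 62.9 in replicate 3. At tofu-1, found in a screen for genes needed for 21U-RNAs, it was 207.0, with 97.5 and 105.7 in the replicates. The promoters of prde-1, tofu-4 and tofu-5 held a region outside the thresholded list, and that of prg-1 held none in the pooled list.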
